A study of Mus musculus with 18 samples.

Results

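The genes described here encode the proteins of the cytosolic ribosome. They were taken from a table of 22783 genes by symbol: Rpl or Rps followed by a number, with a closing a, l or x allowed, plus Rplp0, Rplp1, Rplp2 and Rpsa. Pseudogenes with symbols ending in -ps and the Rps6k kinases were left out. Rps4l was kept by its symbol, although GENCODE M21 gives it as a pseudogene. The symbols gave 81 genes, and 78 of these reached 1 FPKM (fragments per kilobase of transcript, scaled to the number of mapped fragments) in at least 3 of 18 libraries. Of the 78, 46 belong to the large and 32 to the small subunit. The 3 genes left outside were Rpl10l, Rpl39l and Rpl3l, which reached at most 0.256, 0.283 and 0.293 FPKM. The member with the lowest median, Rps27, had 5.2 FPKM.

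The study profiled cerebellar mRNA of FVB mice in 2 genotypes at the ages of 5, 12 and 28 weeks, and each genotype and age has 3 libraries. Every mouse is labelled Cck-/-, that is, without the gene of the neuropeptide cholecystokinin, so the controls carry this deletion too. On the same deletion, mice labelled ATXN1[30Q]D776/Cck-/- have a transgene named for ataxin-1 with 30 glutamines and the D776 form; expanded glutamine tracts in ataxin-1 cause a spinocerebellar ataxia. Libraries of this genotype are called transgenic below. The labels name no promoter for the transgene and do not state whether each library is a separate animal, so p-values measure the spread between libraries, which may be technical.

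Cytosolic ribosomes consist of a small subunit, which reads the mRNA, and a large subunit, which joins amino acids. Their proteins are made in nearly matched amounts, and most of their mRNAs begin with a pyrimidine tract at the cap (the 5′ terminal oligopyrimidine, or TOP, motif), through which mTORC1 controls their translation. The title of the series names mTORC1 signalling, and translation itself is not measured by mRNA levels. Mammalian genomes also hold many intronless copies of these genes, most of them pseudogenes.

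Library totals ran from 389248 to 441509 FPKM, and 12767 to 13323 genes reached 1 FPKM in a library. The files give no read counts, the depth is unknown, and counting error cannot be stated. Purkinje cell markers, among them Pcp2 at 232 to 817 FPKM, were detected in all libraries. Mouse Atxn1 lay between 4.05 and 7.01 FPKM. Cck, although labelled as deleted, stood at 98.1 ± 15.6 FPKM in transgenic week 5 libraries and at 20.8 ± 4.51 in Cck-/- week 5 libraries (SD, n = 3 each), so the transgene and this difference in Cck cannot be told apart wherever transgenic week 5 libraries enter. Choroid plexus markers, a tissue next to the cerebellum, were low in 2 of 3 transgenic week 5 libraries and in 1 transgenic week 28 library: their mean log2 level was 1.26 to 1.62 there and 3.08 to 4.72 in the other libraries. In 2 transgenic libraries, week 12 replicate 2 and week 28 replicate 1, Xist and a Y-linked gene both exceeded 1 FPKM. By these genes the sexes were mixed within groups and not matched between them. At week 5 Xist stood at 66.3, 0.882 and 0.432 FPKM in Cck-/- and at 99.6, 0.0806 and 61.2 FPKM in transgenic libraries. A Y-linked gene was high where Xist was low. In bulk RNA, fewer cells of a type and less RNA per cell cannot be told apart.

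The ribosomal protein genes were among the most abundant transcripts and together held 4.76% to 6.23% of the FPKM of a library. Their medians over the 18 libraries ran from 5.2 to 711 FPKM, with a median of 291. The small subunit (median 295 FPKM) and the large subunit (282 FPKM) were at like levels. Rpl38 was highest at 711 FPKM, followed by Rplp1 at 662, Rps29 at 598, Rps21 at 590 and Rpl39 at 573. The ranges of these 5 genes overlapped, and neighbours in the order were not separated by the spread between libraries. In all, 71 genes had a median of at least 100 FPKM. The other 7 lay well below them: Rps27l at 52 FPKM, Rpl22 at 46.7, Rps15a at 41.2, Rpl26 at 27.7, Rps4l at 18.6, Rpl30 at 18.5 and Rps27 at 5.2.

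**Figure D1:**
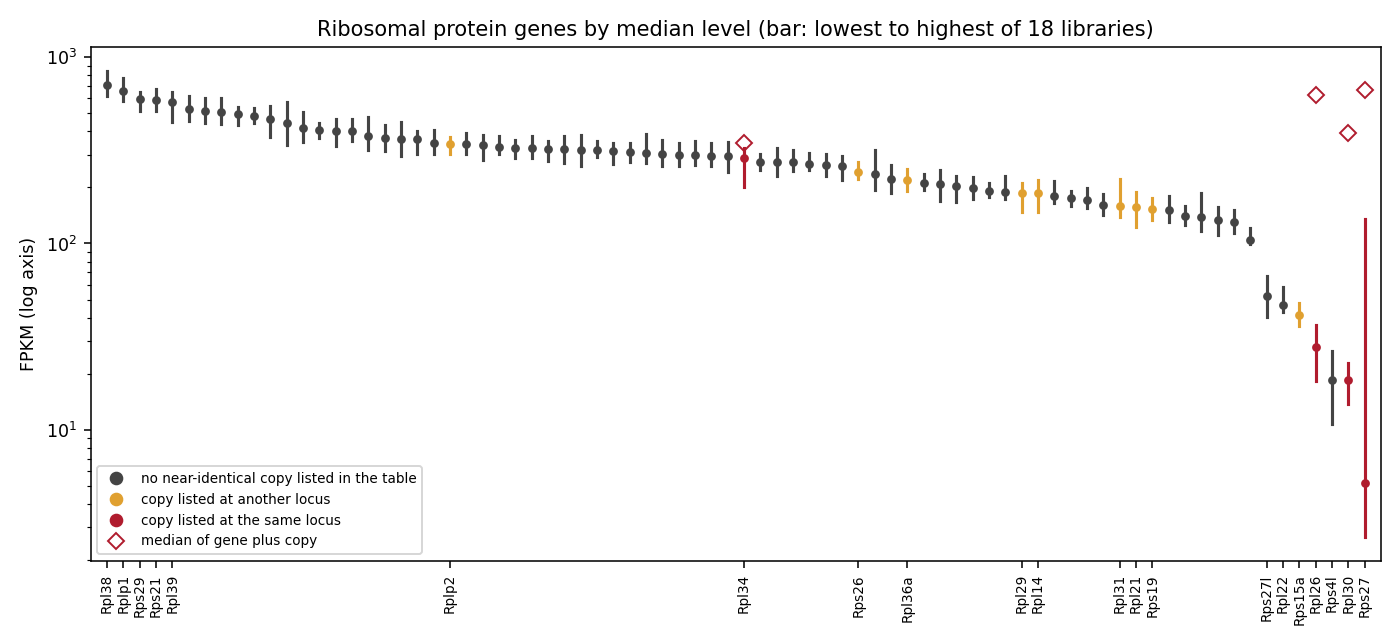
FPKM (log axis) of the 78 genes in order of their median, with names for the 5 highest, the 7 lowest and those with a listed copy: points are medians and bars run from the lowest to the highest of 18 libraries. Diamonds give the median of a gene plus a near-identical copy listed at the same locus, which puts Rps27, Rpl26 and Rpl30 (medians 5.2, 27.7 and 18.5 FPKM) at 667, 625 and 391 FPKM.

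For 3 of the 7 low genes the table lists a near-identical copy at the same position, and the copy held most of the FPKM. Rps27 and Rps27rt are both placed at chr3:90212667-90213648 (mm10), and their coding sequences of 252 bases are identical. Rps27 had 3.45, 3.35 and 2.65 FPKM in Cck-/- week 5 libraries, 49.1, 54.8 and 4.98 at week 12, and 20.4, 32.3 and 5.29 at week 28. In transgenic libraries it had 35.0, 4.55 and 4.58 FPKM at week 5, 4.39, 5.11 and 136 at week 12, and 6.57, 4.70 and 5.75 at week 28. The values scattered widely within most groups, and transgenic week 12 replicate 3 was far above the rest. Rps27rt lay between 535 and 848 FPKM. The sum of both rows had a within-group SD of 0.134 on the log2 scale, against 1.544 for Rps27 alone, the largest of all members. For Rpl26 the SD went from 0.279 to 0.106 with its copy added, and for Rpl30 from 0.195 to 0.102.

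Rpl26, a large subunit protein, and the row Gm15772 share chr11:68901566-68904534 (mm10). The coding sequence of Rpl26 and the annotated transcript named Gm15772 are 99.54% identical over 435 aligned bases. Rpl30 and Gm12191 share chr15:34440506-34443276 and are 99.71% identical over 345 bases. Gm15772 held 93.4% to 97.3% of the sum with Rpl26, and Gm12191 held 93.6% to 96.5% of the sum with Rpl30, in every library. The stretches below show how little tells a gene from its copy. Each holds 60 bases of coding sequence (GENCODE M21, GRCm38), bases 147 to 206 of Rpl26 and 66 to 125 of Rpl30, with the base that differs in capitals.
Rpl26: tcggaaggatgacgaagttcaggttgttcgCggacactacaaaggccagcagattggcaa
Gm15772: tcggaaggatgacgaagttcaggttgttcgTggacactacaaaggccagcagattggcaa
Rpl30: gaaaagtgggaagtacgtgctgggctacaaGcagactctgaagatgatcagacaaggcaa
Gm12191: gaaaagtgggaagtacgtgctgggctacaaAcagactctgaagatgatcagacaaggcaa

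GENCODE M21 annotates Gm15772 and Gm12191 as processed pseudogenes. A search of its transcripts with the coding sequence of each member found a median of 5 copies per gene, counting those with at least 95% identity over at least 80% of the sequence. The search covered 77 members, and 4 of them had no such copy. Rps4l was left out because that annotation gives it as a pseudogene with no coding sequence. Rpl21 had the most, with 57. Of 563 copies, 14, belonging to 13 genes, have a row of their own in the table. How the authors treated fragments that match several places is not given in the sources used here. Copies were tied to listed rows by symbol alone, and their annotated positions were not compared with the locus of the row. A row at a shared locus thus need not measure the sequence shown. Levels of genes with copies are uncertain for these reasons.

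In 3 further pairs the copy, at another locus, separated the week 28 libraries from all others. Rpl31-ps12 (chr16:16753016-16829363) had 7.05 to 10.9 FPKM in the 12 libraries of weeks 5 and 12 and 0.573 to 0.895 in the 6 libraries of week 28. Rpl14-ps1 (chr7:45303155-45333780) was listed at 0 in all 12 libraries of weeks 5 and 12 and at 2.75 to 3.85 FPKM in all 6 of week 28. Rps15a-ps6 (chr11:6105692-6200451) had 0.323 to 1.58 FPKM at weeks 5 and 12 and 0.0764 to 0.169 at week 28. The week 28 values of both genotypes lay outside the range of the earlier ages for these 3 of the 14 listed copies. In the whole table, 11 rows separated week 28 from the other ages in this way by at least 4-fold, in both genotypes, and 0 rows separated week 5 or week 12; this count was chosen after the values were seen. The labels name no batch, so age and a possible batch of the week 28 libraries cannot be told apart in any comparison of week 12 with week 28. Rpl31 and its copy are 98.93% identical over 375 coding bases, and bases 53 to 112 of Rpl31 are shown for comparison, with differing bases in capitals.
Rpl31: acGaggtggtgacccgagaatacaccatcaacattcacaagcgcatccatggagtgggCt
Rpl31-ps12: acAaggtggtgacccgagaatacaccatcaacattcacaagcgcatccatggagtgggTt

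**Figure D2:**
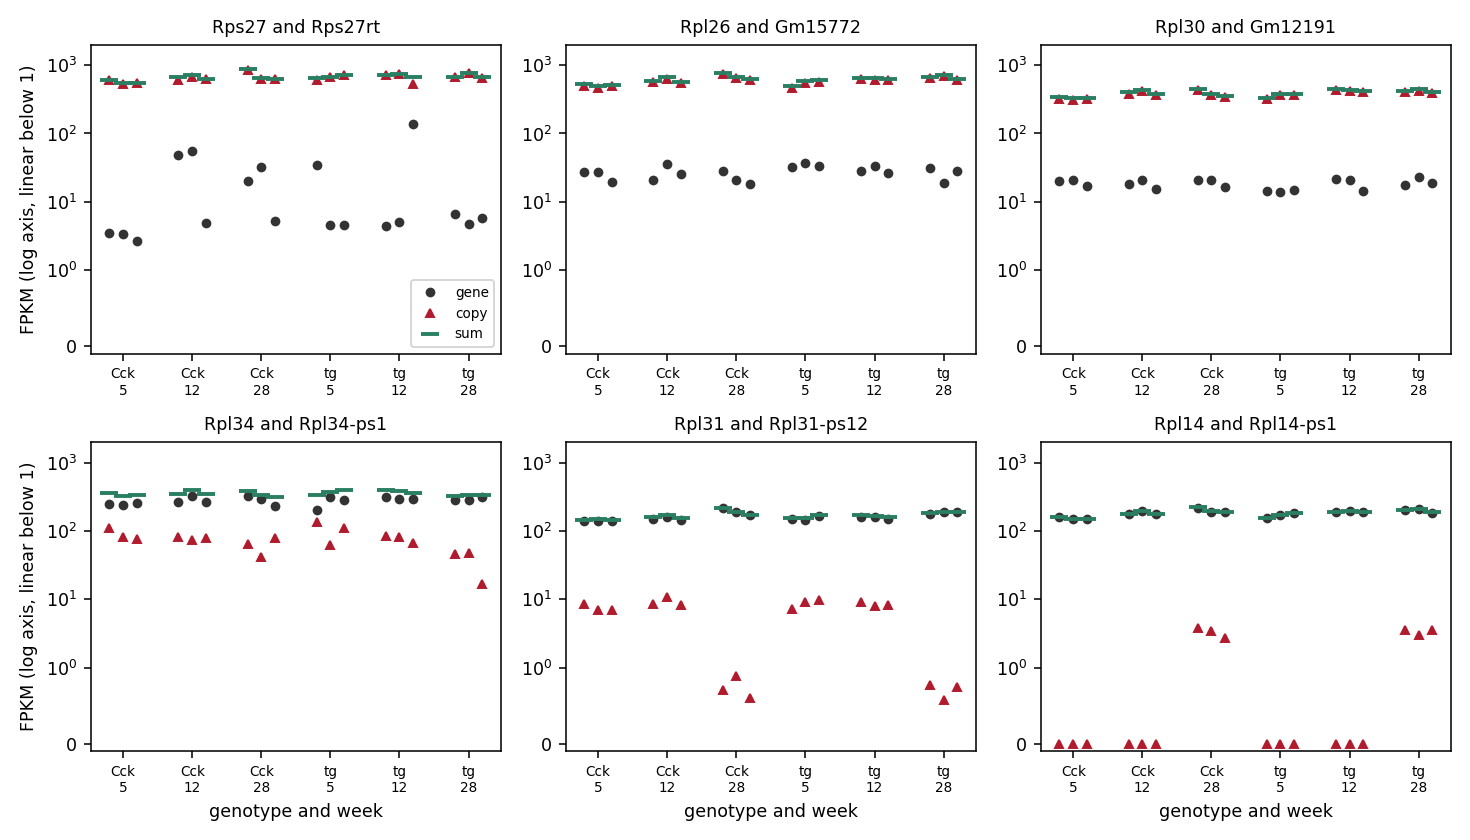
FPKM (log axis, linear below 1) of 6 genes, their near-identical copies and the sum of both in each of 18 libraries, by genotype (Cck, Cck-/-; tg, transgenic) and week. Rps27 scatters from 2.65 to 136 FPKM while its sum with Rps27rt stays between 541 and 868, and Rpl31-ps12 and Rpl14-ps1 separate week 28 from the other ages.

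Sequences around the start sites were searched for the motifs for which the family is known. RefSeq promoters (GRCm38.p6) were at hand for 57 of the 78 members. Within 30 bases on either side of the annotated start, the letters CTTTC stood on the sense strand of 21 members, 36.8%, against 9.18% of 27025 genes. On the reverse strand 8.77% of members and 8.58% of genes held them. ACTTCC, on either strand, was found in 31.6% of members and 8.07% of genes, and AAGATGG in 5.26% and 1.91%. These motifs were chosen after some member sequences had been seen, a match shows only that the letters are present, and no test compared members with other genes. The windows below are those of all 14 members with an entry among the 18 called in a comparison, and 11 of them hold a run. They run 15 bases to each side of the start, 5′ to 3′ on the gene's strand, with the longest run of at least 6 pyrimidines in capitals.
Rpl14: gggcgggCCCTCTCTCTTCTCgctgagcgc
Rpl13: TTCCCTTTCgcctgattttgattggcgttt
Rpl27a: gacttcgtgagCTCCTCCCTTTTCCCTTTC
Rpl13a: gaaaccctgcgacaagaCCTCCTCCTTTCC
Rpl12: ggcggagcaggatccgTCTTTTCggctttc
Rpl9: acgcagggccctgacggattacaagaacgt
Rps23: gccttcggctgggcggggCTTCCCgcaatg
Rpl31: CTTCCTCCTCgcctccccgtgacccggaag
Rpl37: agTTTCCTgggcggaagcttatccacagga
Rpl18: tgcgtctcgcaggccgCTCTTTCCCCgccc
Rpl39: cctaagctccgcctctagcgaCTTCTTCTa
Rps27l: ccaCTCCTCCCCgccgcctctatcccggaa
Rplp0: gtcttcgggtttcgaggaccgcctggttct
Rps28: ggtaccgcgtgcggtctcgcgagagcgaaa

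These windows lie at chr9:120571502-120571531 for Rpl14, chr8:123102335-123102364 for Rpl13, chr7:109519180-109519209 for Rpl27a, chr1:39367836-39367865 for Rpl31 and chr15:5116598-5116627 for Rpl37. Those of Rpl12 and Rps23 lie at chr2:32961697-32961726 and chr13:90923107-90923136, and those of Rpl13a and Rpl9, on the minus strand, at chr7:45128731-45128760 and chr5:65391417-65391446. Those of Rpl18 and Rpl39 lie at chr7:45718056-45718085 and, on the minus strand, at chrX:37085208-37085237. Those of Rps27l, Rplp0 and Rps28 lie at chr9:66946071-66946100, chr5:115559452-115559481 and, on the minus strand, chr17:33824548-33824577. Rplp0, Rps28 and Rpl9 held no such run in this window. The marked runs of Rpl13, Rpl31, Rpl37 and Rps27l end before the annotated start, so as annotated they lie outside the transcript. Across the 57 members, 63.2% held a run of at least 6 pyrimidines in a window of this length, against 32.7% of all genes.

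Ribosomal protein genes shifted together from library to library within a group. In Cck-/- week 12 replicate 2, 77 of the 78 genes lay above their group mean, and 76 did so in Cck-/- week 28 replicate 1. In Cck-/- week 28 replicate 3 and transgenic week 5 replicate 1 only 2 did. The same count was not made for all genes, so these counts do not show a shift particular to this family. The mean log2 level of the 78 genes was 7.78, 7.68 and 7.70 in the Cck-/- libraries of week 5, 7.83, 7.96 and 7.79 at week 12 and 8.04, 7.89 and 7.80 at week 28. In transgenic libraries it was 7.72, 7.81 and 7.89 at week 5, 7.89, 7.94 and 7.89 at week 12 and 7.87, 7.92 and 7.83 at week 28. The groups overlapped, except that all libraries of weeks 12 and 28, in both genotypes, were above all Cck-/- week 5 libraries. The pooled within-group SD of this mean was 0.078, and the group means ran from 7.72 to 7.91. Cck-/- week 28 replicate 1, with the highest level of all, also had the lowest mean log2 level of granule neuron markers, 7.02, and the highest of blood, 7.42, and of meninges, 4.23. The part of these in its high level was not tested. Over the 10 comparisons limma called at most 3 of 8 granule markers, all lower, and at most 1 of 6 meninges markers, while 0 of 9 choroid plexus and 0 of 6 blood markers were called in any. Of 6 astroglia markers 3 were higher and 3 lower between genotypes at week 28.

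**Figure D3:**
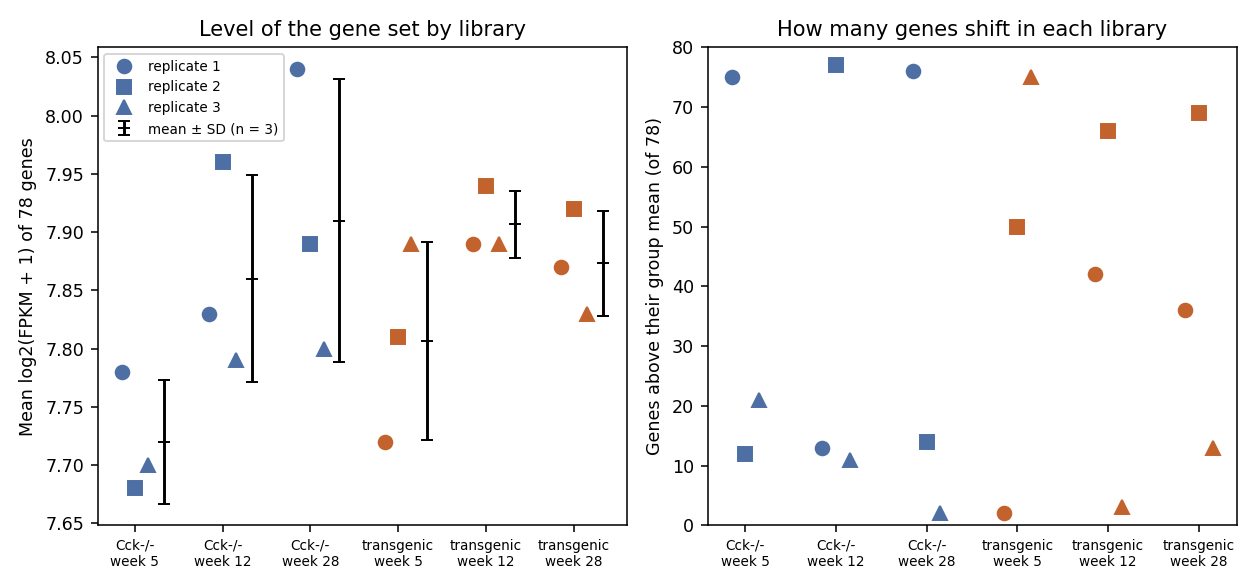
Left, mean log2(FPKM + 1) of the 78 genes in each library, with the group mean and SD (n = 3). Right, how many of the 78 genes lay above their own group mean in each library. The counts run from 2 to 77, and the same count was not made for all genes.

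Few of these genes passed a test between genotypes at any age. At week 5, 1 of 78 members was called lower by limma at an adjusted p under 0.05, against 7.67% of all genes tested in either direction and 4.37% lower. An unadjusted p under 0.05 was reached by 13 members (16.7%) and by 22.3% of all genes. The median log2 difference, transgenic minus Cck-/-, was 0.088 for the members and 0 for all genes. Above zero were 64 members (82.1%) and 50.1% of all genes. The members shifted together from library to library, so such counts, here and below, are not counts of independent genes. Without overlap of the libraries, 14 members were higher and 2 lower, against 31.2% of all genes in either direction. The member called was Rplp0, the scaffold protein of the ribosomal stalk, which recruits translation factors to the large subunit. Rplp0 had 216, 201 and 206 FPKM in Cck-/- and 171, 178 and 186 FPKM in transgenic libraries. All transgenic libraries were below all Cck-/- libraries (log2 difference -0.218, SE 0.055, adjusted p = 0.0258 by limma), opposite to the median of the family. Leaving out 1 library ended the call in 4 of 6 cases: the adjusted p was 0.111 without Cck-/- replicate 1, 0.0741 without Cck-/- replicate 3, 0.0889 without transgenic replicate 1 and 0.0796 without transgenic replicate 2. It was also lost, with 0 members called, when choroid plexus levels were a covariate. Leaving out the 3 libraries low in those markers kept only replicate 3 of the transgenic week 5 group, and the members' median became 0.188. That library had the highest mean log2 level of the members in its group, 7.89 against 7.72 and 7.81. Of 6 oligodendrocyte markers 4 were lower in transgenic libraries at this age, and blood markers stood at a mean log2 level of 6.34 to 7.05 in Cck-/- and 4.92 to 5.33 in transgenic libraries; their part was not tested. Quantile normalization called 6 members, 5 higher and 1 lower. The share of all genes called with this scaling is not given, here or below.

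At week 12, 0 of 78 members were called by limma, against 1.36% of all genes. An unadjusted p under 0.05 was reached by 2 members (2.56%) and by 12% of all genes. The median difference was 0.048, and 75 members (96.2%) were above zero, against 51.2% of all genes. This median was smaller than the pooled within-group SD of the members' mean log2 level, 0.078. Rps2, a small subunit protein at the mRNA entry, had 270, 275 and 231 FPKM in Cck-/- and 303, 301 and 289 FPKM in transgenic libraries, without overlap (log2 difference 0.207, SE 0.069, adjusted p = 0.201). In all, 2 members were higher and 0 lower without overlap, against 16.7% of all genes in either direction. Rps4l, a paralog of the X-linked Rps4x, differed by 0.44 (SE 0.20, adjusted p = 0.397), and its libraries scattered from 10.8 to 26.5 FPKM over all groups. The Rps4l row shares its locus with those of 4 other genes. Rpl21 differed by 0.113 (SE 0.061, adjusted p = 0.499).

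At week 28, when the transgenic Purkinje markers were lowest, limma again called 0 of 78 members, against 10.7% of all genes. An unadjusted p under 0.05 was reached by 3 members (3.85%) and by 25.8% of all genes. The median difference was -0.026, and 24 members (30.8%) were above zero, against 51.6% of all genes. With quantile normalization the median was 0.075 and 1 member was called higher. Rps15, a protein of the small subunit head, had 621, 594 and 571 FPKM in Cck-/- and 508, 555 and 500 FPKM in transgenic libraries. The groups did not overlap, but the difference did not pass the test (log2 difference -0.192, SE 0.065, adjusted p = 0.0749 by limma). In all, 0 members were higher and 4 lower without overlap, against 26.1% of all genes in either direction. The Rps15 row shares its locus with 46 other rows. Rpl29 differed by -0.111 (SE 0.051, adjusted p = 0.18). Of 8 Purkinje markers 8 were lower at this age, with a median of -1.085, and of 10 microglia markers 5 were higher, with a median of 0.675. Mean log2 levels of the Purkinje markers were 7.82 to 7.95 in Cck-/- and 6.35 to 7.19 in transgenic libraries, and those of the microglia markers 3.33 to 3.84 and 3.91 to 4.48.

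Within this fit and scaling, intervals limited the size of a difference between the genotypes. They do not cover the choice of scaling or of libraries, which moved the medians at weeks 5 and 28. The 95% confidence interval of the log2 difference had a median half-width of about 0.15. It lay within 0.5 on either side of zero, a 1.41-fold change, for 74 members at week 5, 75 at week 12 and 75 at week 28. For a limit of 0.25, or 1.19-fold, the counts were 36, 65 and 59. Rps27 was outside all these limits at each age. Averaged over ages, 6 members (7.69%) and 28.6% of all genes had an unadjusted limma p under 0.05. On this average limma called 1 of 78 members, higher, against 14.8% of all genes in either direction and 6.82% higher. This was Rpl21 (log2 difference 0.117, SE 0.035, adjusted p = 0.036), whose call was lost on leaving out 1 library in 12 of 18 cases (adjusted p up to 0.0779, without transgenic week 5 replicate 2) and when its listed copy BC004004 was added (adjusted p = 0.0834). Quantile normalization called 9 members, all higher.

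**Figure D4:**
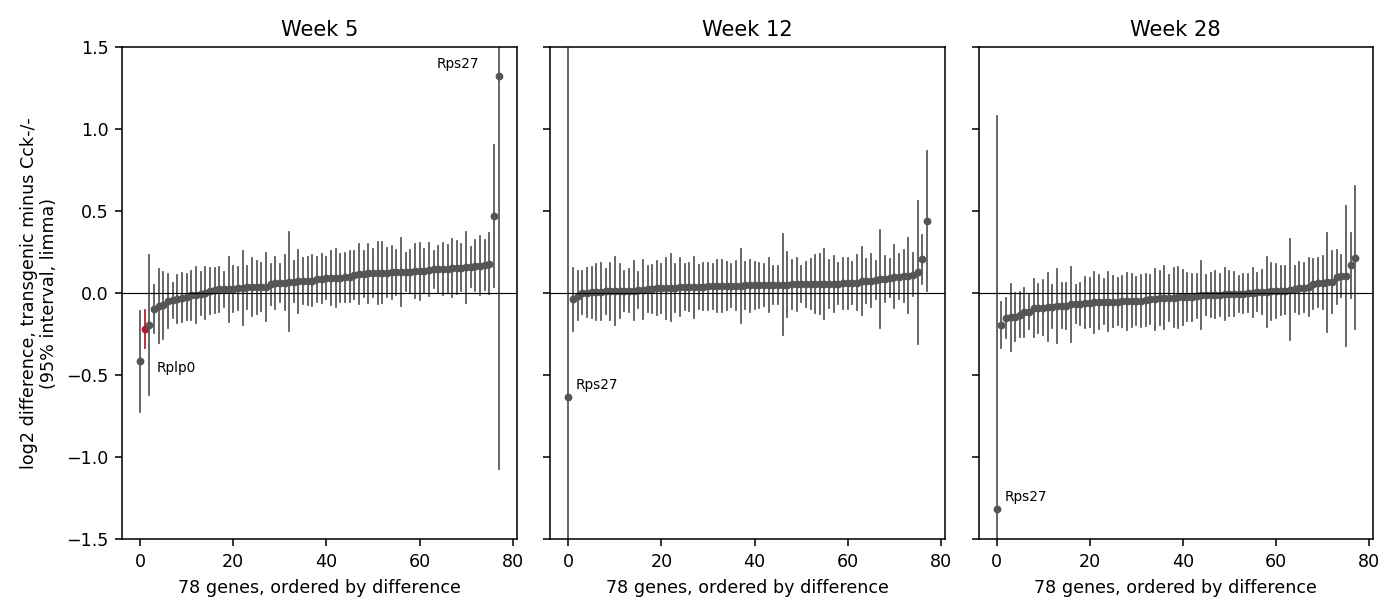
Log2 difference, transgenic minus Cck-/-, of each of the 78 genes with its 95% interval at each age, ordered by size; the gene called by limma (Rplp0, week 5) is in red. Differences beyond 0.25 are those of Rps27 at each age, whose intervals run off the axis, of Rpl26 (0.471) and Rpl30 (-0.413) at week 5 and of Rps4l (0.44) at week 12.

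Between weeks 5 and 12 most members stood higher in Cck-/- cerebellum, though few passed the test. Limma called 10 of the 78 members (12.8%), 9 higher and 1 lower, against 11.8% of all genes, of which 5.29% were higher and 6.53% lower. The members' share called was near this background. The members' median log2 difference was 0.125, against 0.006 for all genes. Above zero were 69 members (88.5%) and 51.7% of all genes. The genes called higher, all but 1 of the large subunit, were Rpl14, Rpl21, Rpl13, Rpl27a, Rpl13a, Rpl8, Rpl12, Rpl9 and Rps23. The median difference was alike in both subunits, 0.122 for members of the large and 0.128 for those of the small.

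Rpl14 had 160, 148 and 151 FPKM at week 5 and 180, 195 and 179 FPKM at week 12, without overlap (log2 difference 0.268, SE 0.067, adjusted p = 0.0177 by limma). In all, 39 members were higher and 2 lower without overlap, against 35.3% of all genes in either direction. Rpl21 went from 127, 124 and 123 to 141, 156 and 147 FPKM (log2 difference 0.242, SE 0.061, adjusted p = 0.0181), and Rpl13 and Rpl27a rose by 0.253 and 0.205. Each of the 10 calls was lost on leaving out at least 3 of the 6 libraries in turn. Without Cck-/- week 12 replicate 2 the adjusted p was 0.079 for Rpl14 and 0.0832 for Rpl21, and without Cck-/- week 5 replicate 2 it was 0.108 for Rpl13 and 0.11 for Rpl27a. For Rplp0 it was at most 0.102, without Cck-/- week 12 replicate 1. Quantile normalization called 22 higher and 1 lower. Rplp0 went the other way, from 216, 201 and 206 to 171, 188 and 179 FPKM, without overlap (log2 difference -0.209, SE 0.055, adjusted p = 0.0231). The Cck-/- week 5 libraries are the same ones in which Rplp0 stood above the transgenic group, so these 2 results share them. The number of calls rested on single libraries: it was 0 without Cck-/- week 5 replicate 3, 1 without Cck-/- week 5 replicate 2 or Cck-/- week 12 replicate 2, and 6 without Cck-/- week 5 replicate 1. It was 2 without Cck-/- week 12 replicate 1 and 4 without Cck-/- week 12 replicate 3. Oligodendrocyte markers fell over the same interval, 6 of 6, with a mean log2 level of 8.59 to 8.82 at week 5 and 7.47 to 7.68 at week 12, and their part was not tested.

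In transgenic cerebellum the median difference from week 5 to 12 was 0.105, with 71 members (91%) above zero, against 49.2% of all genes. Limma called 0 of 78 members there, against 1.19% of all genes. An unadjusted p under 0.05 was reached by 8 members (10.3%) and by 13.5% of all genes. Rpl21 had 130, 144 and 138 FPKM at week 5 and 161, 165 and 155 FPKM at week 12 (log2 difference 0.222, SE 0.061, adjusted p = 0.10). Rps2 and Rpl8, a protein near the peptidyl transferase centre, differed by 0.218 (SE 0.069) and 0.168 (SE 0.054), each with an adjusted p of 0.169. Without the 3 libraries low in choroid plexus markers the median difference was 0.006, but only replicate 3 then stood for transgenic week 5.

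From week 12 to 28 single members changed in both directions. In Cck-/- libraries limma called 5 of 78 (6.41%), 4 higher and 1 lower, against 9.65% of all genes, of which 4.03% were higher and 5.62% lower. The members' median was 0.052. Without overlap of the libraries, 14 members were higher and 2 lower, against 30% of all genes in either direction. Rpl31, at the exit of the peptide tunnel, had 149, 158 and 146 FPKM at week 12 and 221, 192 and 174 FPKM at week 28, without overlap. Its log2 difference was 0.364 (SE 0.071, adjusted p = 0.00598 by limma), and it was called whichever of the 6 libraries was left out, with adjusted p up to 0.03. The Rpl31 row spans 110897 bases (chr1:39367851-39478747) and shares this locus with the row of Tbc1d8. Rpl37 rose by 0.290 and Rps28 by 0.332. The 4 calls other than Rpl31 were lost on leaving out 2 to 5 of the libraries in turn. Rpl29, a large subunit protein, went from 176, 193 and 188 to 166, 169 and 160 FPKM (log2 difference -0.170, SE 0.051, adjusted p = 0.0464). The count of calls lay between 1, without Cck-/- week 12 replicate 3, and 6. It was 2 without Cck-/- week 12 replicate 1, Cck-/- week 28 replicate 1 or Cck-/- week 28 replicate 2, and 3 without Cck-/- week 12 replicate 2. The fit of these 6 libraries alone called 0.

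In transgenic libraries limma called 6 of 78 from week 12 to 28 (7.69%), 2 higher and 4 lower, against 23.8% of all genes, of which 10.2% were higher and 13.7% lower. The members' median was -0.030. Without overlap of the libraries, 10 members were higher and 15 lower, against 38.1% of all genes in either direction. Rpl29 had 178, 201 and 187 FPKM at week 12 and 156, 155 and 147 FPKM at week 28, without overlap (log2 difference -0.302, SE 0.051, adjusted p = 0.00116), and it kept its call without each library, with adjusted p up to 0.0066. Rpl31 went from 160, 160 and 150 to 180, 192 and 189 FPKM, also without overlap (log2 difference 0.254, SE 0.071, adjusted p = 0.0181). The call of Rpl31 was lost without week 12 replicate 3 (adjusted p = 0.0735) or week 28 replicate 2 (adjusted p = 0.0701). Rpl21 rose by 0.190, and the log2 differences of Rpl18, Rpl39 and Rps27l were -0.249, -0.322 and -0.325. These 4 calls were lost on leaving out 2 to 6 of the libraries in turn.

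Another scaling turned the direction of this last comparison: quantile normalization gave 17 members higher and 1 lower, with a median of 0.079. Without transgenic week 12 replicate 2 limma called 3 members, and 2 without week 12 replicate 3, week 28 replicate 1 or week 28 replicate 2. Adding its copy lowered the change of Rpl31. With Rpl31-ps12 added, the difference was 0.28 (SE 0.07, adjusted p = 0.0225) in Cck-/- and 0.18 (SE 0.07, adjusted p = 0.0734) in transgenic libraries. Over this interval 7 of 8 Purkinje markers were lower and 9 of 10 microglia markers higher in transgenic libraries, and in Cck-/- libraries 0 of 8 and 1 of 10 were. Their part in the changes of the ribosomal protein genes was not tested.

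**Figure D5:**
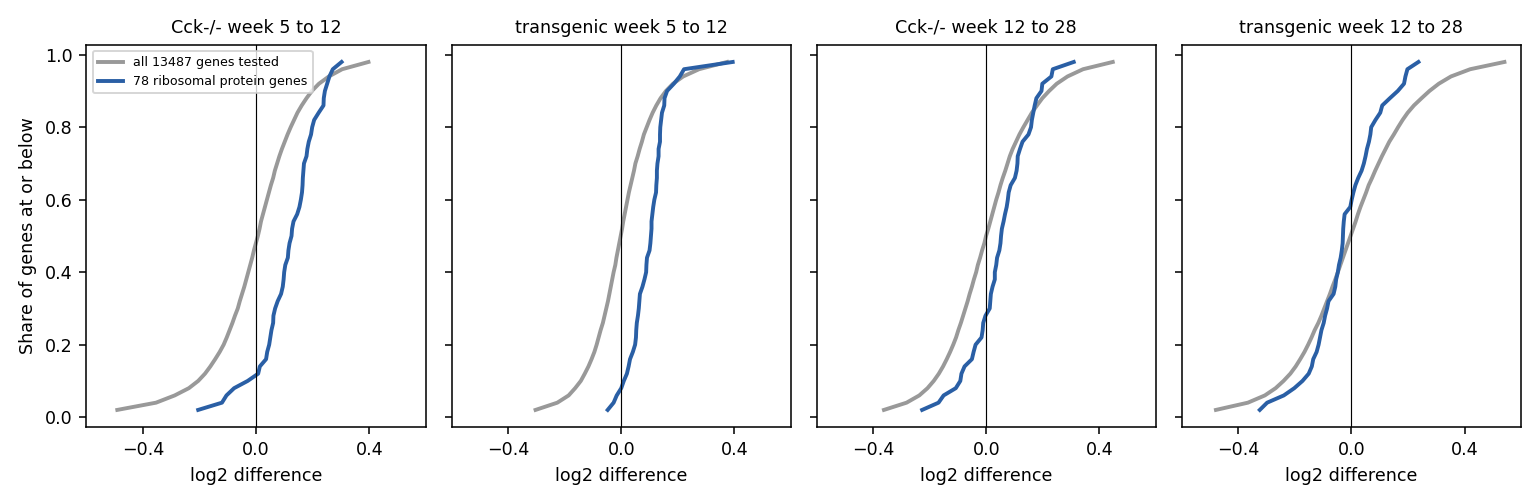
Cumulative share of genes (y axis) at or below a given log2 difference (x axis) for the 78 genes and for all 13487 genes tested, in each age step and genotype. From week 5 to 12 the curve of the 78 genes lies to the right (medians 0.125 and 0.105), and from week 12 to 28 it is near that of all genes in transgenic libraries (median -0.030).

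No age change was shown to differ between genotypes. For week 12 against 5 limma called 0 of 78 members (0.667% of all genes), and for week 28 against 12 it called 0 (0% of all genes). An unadjusted p under 0.05 was reached by 3 members in the first (12.1% of all genes) and by 1 in the second (10.1% of all genes). The first interaction was largest relative to its error in Rplp0, at 0.269 (SE 0.078, adjusted p = 0.154), then in Rpl30 at 0.466 and Rps4l at 0.632, with adjusted p of 0.38 and 0.39. With Gm12191 added, Rpl30 was at -0.015. For the second, Rps15 was at -0.229 (SE 0.092, adjusted p = 0.458), and Rpl38 at -0.201 (SE 0.097, adjusted p = 0.502). Intervals were wider here, with a median half-width of 0.214.

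Rps6, the small subunit protein phosphorylated downstream of mTORC1, had 201, 186 and 192 FPKM in Cck-/- and 190, 206 and 216 FPKM in transgenic libraries at week 5. At week 28 it had 263, 233 and 226 and 244, 250 and 225 FPKM. The genotypes overlapped at both ages, and the genotype differences were 0.075, 0.048 and -0.003 at weeks 5, 12 and 28 (SE 0.065 each). Both age steps were above zero in both genotypes, from 0.098 to 0.165, and none was called. Phosphorylation of the protein is not measured by mRNA.

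The stalk proteins Rplp1 and Rplp2, which bind Rplp0 as dimers, were not called at week 5, where Rplp0 was. Rplp1 differed by 0.156 (SE 0.077, adjusted p = 0.248) and Rplp2 by 0.024 (SE 0.064, adjusted p = 0.876). Rplp1 stood at 579 to 772 FPKM over all libraries, Rplp2 at 301 to 375 and Rplp0 at 164 to 216. Rpsa, a small subunit protein that also serves as a laminin receptor, ran from 155 to 198 FPKM. Its genotype differences were -0.011, 0.005 and 0.015 (SE 0.07 each).

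Rpl5 and Rpl11 form with 5S RNA the particle that can bind Mdm2 and so stabilize p53. Rpl5 lay between 114 and 152 FPKM and Rpl11 between 367 and 445, and neither was called in any of the 10 comparisons. Rpl3, at the peptidyl transferase centre, ran from 302 to 407 FPKM and was not called either. Its differences from week 12 to 28 were 0.161 in each genotype (SE 0.066; adjusted p = 0.134 in Cck-/- and 0.0865 in transgenic libraries). Among 11 tested p53 target genes limma called 2 higher, Bbc3 and Mdm4, and 1 lower, Zmat3, at week 28 between genotypes. Of all genes, 10.7% were called there in either direction. From week 12 to 28 in transgenic libraries 1 was higher, Mdm4, and 3 lower, Cdkn1a, Bax and Rps27l. Of all genes, 10.2% were higher and 13.7% lower in that comparison.

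Among the paralogs, Rpl22l1 stood above its usual form, while Rpl36al and Rpl7l1 stood below theirs. Rpl22l1 stood at 160 to 227 FPKM and Rpl22 at 42.7 to 58.3, per length and without overlap. Rpl36al stood at 130 to 168 FPKM, against 191 to 250 for Rpl36a. Rpl7l1 stood at 17.4 to 23.7 FPKM, against 304 to 392 for Rpl7. The testis-linked paralogs Rpl10l and Rpl39l and the muscle-linked Rpl3l stayed below 0.3 FPKM. From week 12 to 28 in transgenic libraries limma called 4 of 6 tested paralogs lower, against 13.7% of all genes. Rpl7l1 fell by 0.25 (adjusted p = 0.00172), Rpl36al by 0.20 (adjusted p = 0.0305) and Rpl22l1 by 0.25 (adjusted p = 0.0394). The fourth was Rps27l (log2 difference -0.325, adjusted p = 0.039). In Cck-/- libraries only Rpl7l1 was called, at -0.20, against 5.62% of all genes called lower. These differences between genotypes did not pass (0 of 6 called in the interaction, and 0% of all genes). Rpl39, the counterpart of Rpl39l, had 632, 647 and 588 FPKM at week 12 and 451, 516 and 529 at week 28 in transgenic libraries.

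Ribosomal proteins outside the symbol rule include Fau, made as a fusion with a ubiquitin-like protein, and Rack1, listed as Gnb2l1. Fau stood at 307 to 404 FPKM and Gnb2l1 at 168 to 194, and limma called neither in any of the 10 comparisons.

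Lists of related genes were counted in transgenic libraries from week 12 to 28, where 13.7% of all genes were called lower and 10.2% higher. Of 77 genes of the mitochondrial ribosome, limma called 36 lower and 0 higher, with a median of -0.162, led by Mrpl14 at -0.37 (SE 0.06, adjusted p = 0.000696). Of 38 oxidative phosphorylation genes 20 were lower and 0 higher, with a median of -0.251, led by Cox7c at -0.58 (SE 0.07, adjusted p = 0.000194). The 78 cytosolic genes had 2 higher and 4 lower, with a median of -0.030. Between genotypes at week 28, 5 of 77 and 5 of 38 were lower, and 0 were higher in either list, while 0 of 78 cytosolic genes and 10.7% of all genes were called in either direction. In Cck-/- libraries from week 5 to 12, 14 of the 38 and 0 of the 77 genes were lower, against 6.53% of all genes, and 0 were higher. In the interaction of week 28 against 12, limma called 0 genes of either list, and 0% of all genes. No test compared the lists with each other.

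Against the same shares of all genes, of 37 initiation factor genes 1 was higher and 8 lower in this interval, among them Eif5a at -0.20 (SE 0.04, adjusted p = 0.00427), and of 7 elongation genes 2 were lower, Eef1e1 and Eef1b2. Of 41 ribosome assembly genes 2 were higher, including Tsr1 at 0.26, and 8 lower, including Polr1d, a subunit of RNA polymerases I and III, at -0.40 (SE 0.06, adjusted p = 0.00089). Among 19 other TOP mRNAs 2 were higher, Hnrnpa1 at 0.38 (SE 0.04, adjusted p = 4.07e-05) and Eif4b, and 1 lower, Eef1b2. Of 22 regulators of TOP mRNAs and ribosome production, 5 were higher and 3 lower. At week 28 between genotypes limma called 1 of these 22 regulators higher and 1 lower, against 10.7% of all genes in either direction. Myc, a transcription factor that drives ribosome production, was higher by 0.32 (SE 0.08, adjusted p = 0.017). Rheb, the activator of mTORC1, was lower there (log2 difference -0.19, SE 0.05, adjusted p = 0.0269).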

How the data were processed

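Total RNA from cerebellum was made into Illumina TruSeq libraries, per the labels' protocols. TopHat2 2.0.11 and Cufflinks 2.2.1 with build mm10 are named in the submitters' processing notes. The authors deposited FPKM per gene symbol, which the table's name ties to Cuffnorm; no source used here gives its settings, annotation or read filters. The table's 36 numeric columns of confidence bounds were not used.

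Log2(FPKM + 1) of the 13487 genes with at least 1 FPKM in at least 3 of 18 libraries was fitted with limma 3.58.1 (R 4.3.3; mean-variance trend; 6 group means; 12 residual degrees of freedom). P-values were two-sided and adjusted by Benjamini and Hochberg within each of 10 comparisons, and a call is an adjusted p under 0.05. The members and the gene lists (ribosomal proteins outside the rule, paralogs, translation factors, other TOP mRNAs, ribosome assembly, regulators, p53 targets, mitochondrial genes, cell type markers) were chosen with earlier results of these data known. Named in each comparison were the 4 called members with the smallest p per direction, or the 3 with the smallest p where none was called, and members with fixed roles; a few genes that this rule names are not reported here. Copies were found with blastn 2.17.0 among GENCODE M21 transcripts, using each member's principal complete coding sequence. The fit was tested on simulated data. Alternatives were other pseudocounts (0.1), filters (none, or a mean of at least 5 FPKM), scalings, weights, covariates and blocks, and leaving out each library. Added after seeing the data were fits with copies summed, without 3 libraries low in choroid plexus markers, without 2 with Xist and a Y-linked gene, and with Xist as a covariate. Figures were drawn with matplotlib under Python.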

Additional observations from a re-analysis of the deposited data

How the results depend on the processing

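Depth is unknown, and among the members' calls only Rpl31 in Cck-/- and Rpl29 in transgenic libraries, both from week 12 to 28, passed whichever library was left out. With quantile normalization the numbers of members called were 6 for the genotype effect at week 5, 1 at week 28 and 9 on average, 23 for Cck-/- week 5 to 12 and 18 for transgenic week 12 to 28. The medians with it were 0.075 for the genotype effect at week 28, 0.079 for transgenic week 12 to 28 and 0.032 for the interaction of week 28 against 12, where Rpl38 turned to 0.008. Library weights called 20, 10 and 9 members for the genotype at week 5, week 28 and on average, 46 and 21 for the 2 Cck-/- age steps and 15 for transgenic week 12 to 28, with a median of 0.011 for the later interaction. For the fits of this section the share of all genes called is not given, so these counts do not single out the members. The choroid plexus covariate left 0 members at week 5, 0 on average and 3 for Cck-/- week 12 to 28. No filter on low values gave 5 and 3 for the Cck-/- age steps. Fits of the compared groups only gave 2 at week 5, 0 for Cck-/- week 12 to 28 and 3 for transgenic week 12 to 28. Without the 3 libraries low in choroid plexus markers, transgenic week 5 replicate 3 stood alone in its group. The medians were then 0.188 for the genotype effect at week 5, 0.006 for transgenic week 5 to 12 and -0.123 for the interaction of week 12 against 5. Without the 2 libraries with Xist and a Y-linked gene, 0 were called on average, 4 for Cck-/- week 5 to 12 and 1 for transgenic week 12 to 28; Xist as a covariate gave 6 for Cck-/- week 5 to 12. With copies summed, 0 were called on average and Rpl30 was at -0.015 in the interaction of week 12 against 5. The cause was not tested.

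Leaving out 1 library gave 0 to 1 calls at week 5, 0 to 2 at week 28 (2 without Cck-/- week 28 replicate 1), 0 to 3 on average, 0 to 6 and 1 to 6 for the Cck-/- age steps and 2 to 6 for transgenic week 12 to 28. Same-numbered libraries were not paired by the data: correlations of their deviations ran from -0.39 to 0.44, in 0 of 7 comparisons were all 3 over 0.1, and 3 of 18 libraries correlated best with their own number. With the replicate number as a block, 2 members were called at week 5, and no other count moved by over 1.5 times.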
